A study of Mus musculus with 5 samples.

Results

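The genes described here encode the enzymes of phase I and phase II metabolism of foreign compounds in the mouse mammary gland after ovariectomy, as measured by scRNAseq with and without oral polybrominated diphenyl ethers (PBDEs). They were chosen by symbol, as all annotated genes of the families Cyp1 to Cyp4, of the cytosolic and mitochondrial Gst classes, of Ugt1 and Ugt2, and of Sult, Ephx and Nqo. The rule took 148 of the 27998 genes in the matrices, and 47 of them had at least 20 unique molecular identifiers (UMIs, each of which stands for 1 captured transcript) over the 5 libraries. The other 101 comprised 64 genes without any UMI and 37 genes with 1 to 19 UMIs. All animals were ovariectomized BALB/cj females, 30 weeks old, and each library was made from the fourth mammary gland after 1 week of treatment that began 20 weeks after the surgery. The Vehicle group received DMSO only. The E2 group received 17β-estradiol at 1 ug per animal per day, and the E2+P4 group received in addition progesterone at 0.1 mg per animal per day. The E2+PBDE and E2+P4+PBDE groups received the same hormones and food with BDE-47 at 7.1, BDE-100 at 0.4 and BDE-153 at 0.9 mg/kg, whereas the other 3 groups ate food with DMSO. Whole glands were dissociated after removal of the lymph node and of dead cells, without sorting. There was 1 library per group and the number of animals behind it was not stated in the sources used here, so no difference between groups could be set against the variation between animals and no test was made. All intervals below cover counting error only, at 95%.

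Phase I enzymes open a foreign or endogenous lipophilic compound to further metabolism. Cytochromes P450 (Cyp) oxidize it, epoxide hydrolases (Ephx) add water to reactive epoxides, and the quinone oxidoreductases Nqo1 and Nqo2 reduce quinones. Phase II enzymes attach a polar group, namely glutathione by the glutathione S-transferases (Gst), glucuronic acid by the UDP-glucuronosyltransferases (Ugt) or sulfate by the sulfotransferases (Sult). Their genes are known targets of ligand-activated regulators, above all the aryl hydrocarbon receptor (AhR; Cyp1a1, Cyp1b1), the nuclear receptors CAR and PXR (Cyp2b and Cyp3a genes) and the oxidative stress factor Nrf2 (Nqo1 and many Gst genes). Liver is the main site of these enzymes, and in the mammary gland several of them also act on steroids, such as Cyp1b1, which hydroxylates estradiol, and Sult1e1, which sulfates it.

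The promoters of 3 of these genes are shown because they hold letters that match the response elements of regulators linked to these genes. The genes also behaved differently in these libraries. Cyp1a1 (chr9:57687928-57703824, plus strand) was not detected, Cyp1b1 (chr17:79701537-79715061, minus strand) was the most abundant Cyp1 gene, and Gsta3 (chr1:21240589-21265661, plus strand) was one of the fibroblast genes with a large difference between libraries. Gene positions are those of GENCODE M21 on GRCm38. The promoters, from RefSeq on GRCm38.p6, run from 250 bases before to 50 bases after the start and lie at chr9:57697363-57697662, plus strand, at chr17:79715012-79715311, minus strand, and at chr1:21240335-21240634, plus strand. The Cyp1a1 promoter thus lies inside the GENCODE interval of the gene, not at its edge. Capitals mark letters that match the core of the AhR response element (GCGTG, or CACGC on the other strand) in the first and second. They stand at positions -54 and -76 from the start. In the third they mark letters that match the antioxidant response element of Nrf2 (TGACNNNGC), at position -121. These are matches of letters only, and whether AhR or Nrf2 binds at any of them was not tested.
Cyp1a1: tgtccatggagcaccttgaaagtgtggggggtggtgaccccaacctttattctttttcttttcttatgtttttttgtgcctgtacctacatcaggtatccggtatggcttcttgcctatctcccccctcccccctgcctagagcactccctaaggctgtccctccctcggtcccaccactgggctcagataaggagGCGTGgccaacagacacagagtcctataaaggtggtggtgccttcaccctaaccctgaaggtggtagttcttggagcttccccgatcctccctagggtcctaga
Cyp1b1: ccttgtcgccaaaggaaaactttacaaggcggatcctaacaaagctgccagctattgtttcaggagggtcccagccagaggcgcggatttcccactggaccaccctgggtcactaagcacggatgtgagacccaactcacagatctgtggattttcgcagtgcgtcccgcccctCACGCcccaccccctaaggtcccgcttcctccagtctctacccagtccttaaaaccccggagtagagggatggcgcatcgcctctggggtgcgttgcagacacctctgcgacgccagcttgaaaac
Gsta3: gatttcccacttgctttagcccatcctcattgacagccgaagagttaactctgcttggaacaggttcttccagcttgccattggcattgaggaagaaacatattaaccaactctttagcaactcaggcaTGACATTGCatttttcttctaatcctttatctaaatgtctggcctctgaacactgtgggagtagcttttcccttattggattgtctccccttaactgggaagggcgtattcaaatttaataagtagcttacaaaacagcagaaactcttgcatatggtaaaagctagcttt

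A promoter was found for 40 of the 47 genes. On either strand, the AhR core stood in 32.4% of all 32841 promoters and in 11 of the 40 genes (Cyp1b1, Cyp2j9, Cyp4f16, Cyp4v3, Ephx4, Gsta2, Gstm1, Gstm5, Gstp1, Nqo2 and Sult2b1), or 27.5% of their 51 promoters. The Nrf2 element stood in 12.4% of all promoters and in 5 of the 40 genes (Cyp2j6, Cyp4f18, Gsta3, Gstm5 and Gstm7), or 9.80% of their promoters. Neither share was above that of all promoters, and the windows of Nqo1, Sult1e1, Cyp3a57 and Cyp4b1 held neither set of letters.

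The 5 matrices held 19982067 to 42012988 UMIs and 2233 to 3536 barcodes each, with a median of 5345 to 8698 UMIs per barcode. Between 3 and 15 barcodes were shared by any pair of libraries. Clusters were named from marker genes as fibroblast-like, hormone-sensing luminal (L-Hor-like), alveolar luminal (L-Alv-like), basal-like, hematopoietic-like or endothelial-like. Fibroblast-like cells numbered 2565 in Vehicle and 886 to 1920 in the other libraries, L-Hor-like cells 92 in Vehicle and 476 to 764 elsewhere, and L-Alv-like cells 31 in Vehicle and 122 to 578 elsewhere. Clusters with both luminal programs, with a median of 15312 to 25546 UMIs per cell, and proliferating clusters were left out of the levels. Transcripts of other cell types were present in each compartment. The 6 fibroblast markers together reached 3.74 to 9.18% of their fibroblast level in L-Hor-like cells, 2.65 to 6.69% in L-Alv-like cells and 4.91 to 32.3% in hematopoietic-like cells. In basal-like cells of E2+P4+PBDE the L-Alv markers reached 21.4% and the L-Hor markers 15.6% of their level at home, against at most 4.47% and 5.09% in the other libraries. The library numbers of the PBDE libraries follow each other, and so do those of the other 3, so that a batch along these numbers and the PBDEs cannot be told apart.

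The 148 genes together took 0.118% of all UMIs, 0.184% in Vehicle, 0.112% in E2, 0.118% in E2+PBDE, 0.0902% in E2+P4 and 0.107% in E2+P4+PBDE. Phase II dominated. Glutathione S-transferases, with 19 of 21 genes reported, held 144486 UMIs, and the 83 Cyp genes, with 17 reported, held 12941. The mu class comprised Gstm1 (42102), Gstm2 (15266), Gstm5 (11507), Gstm4 (1586), Gstm7 (394), Gstm6 (288) and Gstm3 (24), where the value after each gene is its UMI total over the 5 matrices. The pi class held Gstp1 (33825) and Gstp2 (3268), the theta class Gstt1 (9878), Gstt3 (8308) and Gstt2 (5083), and the alpha class, which includes the detoxifier of hydroxynonenal Gsta4, held Gsta4 (2371), Gsta3 (279) and Gsta2 (22). Single or paired members of other classes were Gsto1 (5592), Gsto2 (421), Gstk1 (2374) and Gstz1 (1871). Sulfotransferases were Sult5a1 (3606), Sult2b1 (957), Sult1a1 (902) and Sult1e1 (319), and Ugt1a7c (40) was the only one of the 19 Ugt genes to be reported.

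Among phase I genes, the epoxide hydrolases Ephx1 (3288), Ephx2 (419), Ephx4 (185) and Ephx3 (146) and the quinone oxidoreductases Nqo2 (2229) and Nqo1 (1389) were all reported. The Cyp genes were Cyp3a57 (1896), Cyp1b1 (1676), Cyp4b1 (1516), Cyp2d22 (1515), Cyp4f13 (1260), Cyp4f16 (1175), Cyp4v3 (1153), Cyp2j6 (962), Cyp2j9 (448), Cyp2u1 (412), Cyp2f2 (350), Cyp2c44 (169), Cyp2s1 (126), Cyp4f17 (121), Cyp2e1 (28), Cyp4f18 (22) and Cyp4f15 (20). Cyp4f15, with 20 UMIs, lay just inside the limit, and Cyp2j12, with 19, lay just outside it. Cyp1a1, the classical reporter of AhR activation, and Cyp1a2 had 0 of 144528267 UMIs, PBDE libraries included. Over the 5 libraries pooled, a floor of 3 UMIs allows up to 0.0208 CPM (UMIs in every 1000000 UMIs of the cells in question). Within compartments the same floor was higher, at 0.211 CPM in fibroblast-like cells of E2+PBDE and 0.750 in those of E2+P4+PBDE. In endothelial-like cells of these libraries it was 4.76 and 8.89 CPM. Cyp2b10 and Cyp3a11, the usual reporters of CAR and PXR, had 4 and 5 UMIs. Levels of different genes are compared below as CPM of the transcripts' 3′ ends, of which each molecule gives 1, without division by length. For close relatives the counting could split or drop reads: of the words of 60 bases in the last 300 bases of the transcript, 82.1% were shared with another gene for Gstp2, 50.8% for Gstp1, 22.7% for Gstt3, 20.6% for Gstm1, 53.8% for Gsta2 and 66.7% for Ugt1a7c. The levels of these genes are therefore uncertain. Gstt3, Ephx1, Cyp4v3 and Ugt1a7c also overlap another gene on the same strand.

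With the 5 libraries pooled, 18 of the 47 genes had their highest level in fibroblast-like cells, 17 in endothelial-like cells, 6 in L-Hor-like, 3 in basal-like, 2 in hematopoietic-like and 1 in L-Alv-like cells. The share of all genes highest in each compartment is not given here, so these counts show no excess in any compartment. Some were near ties, such as Cyp2j6, Gstm5 and Cyp4f15, at 1.05-fold, 1.09-fold and 1.11-fold above the second compartment. Cyp2e1 was placed in endothelial-like cells by 1 UMI. In fibroblast-like cells, Gstm1 stood at 891 CPM in Vehicle, 714 in E2, 796 in E2+PBDE, 600 in E2+P4 and 773 in E2+P4+PBDE. The pi class enzyme Gstp1 gave 345 CPM in Vehicle, 342 in E2, 285 in E2+PBDE, 312 in E2+P4 and 395 in E2+P4+PBDE. Gstm2 gave 234 CPM in Vehicle, 253 in E2, 247 in E2+PBDE, 217 in E2+P4 and 242 in E2+P4+PBDE. These 3 conjugating enzymes were the most abundant members, and the lowest library of each was above the highest library of any other member in this compartment.

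Gstt1 in fibroblast-like cells stood at 147 CPM in Vehicle, 129 in E2, 137 in E2+PBDE, 106 in E2+P4 and 151 in E2+P4+PBDE. The orphan sulfotransferase Sult5a1 gave 77.1 CPM in Vehicle, 82.3 in E2, 68.7 in E2+PBDE, 60.8 in E2+P4 and 64.7 in E2+P4+PBDE. Gstp2 gave 68.7 CPM in Vehicle, 79.7 in E2, 57.5 in E2+PBDE, 60.3 in E2+P4 and 78.2 in E2+P4+PBDE. All were lower in every other compartment when the libraries were pooled. Sult5a1 was 6.33-fold and Gstt1 3.02-fold above the compartment with the second highest level, against 1.13-fold for Gstp1.

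Endothelial-like cells, although only 27 to 72 per library, were highest for several phase I and phase II genes. By the naming rule, a cluster that reached both endothelial and pericyte markers was called endothelial-like even if pericyte markers scored higher. Pericytes may therefore be among these cells. The basal markers, which include the muscle genes Acta2, Myl9 and Mylk, stood at 284 to 402 CPM in them. Cyp4b1, a P450 that activates protoxins and oxidizes fatty acids, had 234 CPM in Vehicle, 182 in E2, 238 in E2+PBDE, 154 in E2+P4 and 148 in E2+P4+PBDE. Pooled, this was 9.06-fold above fibroblast-like cells. The epoxide hydrolase Ephx3 had 54.5 CPM in Vehicle, 40.8 in E2, 30.1 in E2+PBDE, 33.0 in E2+P4 and 35.5 in E2+P4+PBDE. Pooled, this was 36.2-fold above the second compartment, although these few cells held only 70 of its 146 UMIs and the clusters with both luminal programs held 38. The phenol sulfotransferase Sult1a1 gave 97.3 CPM in Vehicle, 70.8 in E2, 72.9 in E2+PBDE, 93.6 in E2+P4 and 53.3 in E2+P4+PBDE. Gsta4 gave 101 CPM in Vehicle, 79.4 in E2, 74.5 in E2+PBDE, 60.6 in E2+P4 and 56.3 in E2+P4+PBDE. Vehicle was the highest library for both. Gstm5 was little higher in endothelial-like cells (128 CPM pooled) than in basal-like cells (117 CPM). In endothelial-like cells, it ranged over 148 CPM in Vehicle, 116 in E2, 127 in E2+PBDE, 127 in E2+P4 and 130 in E2+P4+PBDE. In fibroblast-like cells, Cyp4b1 stood at 22.0 CPM pooled and the endothelial markers at 0.180 to 0.522% of their endothelial level. The part of free endothelial RNA in that Cyp4b1 level was not tested.

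The luminal lineages differed from each other in their enzymes. L-Hor-like cells, which carry the hormone receptors, were highest for the theta class gene Gstt3, with 113 CPM in Vehicle, 107 in E2, 97.4 in E2+PBDE, 107 in E2+P4 and 99.0 in E2+P4+PBDE. They were also highest for Cyp3a57, a Cyp3a gene, at 34.0 CPM pooled against 3.92 in basal-like cells, and for the cholesterol sulfotransferase Sult2b1, at 17.4 CPM. L-Alv-like cells, of the secretory lineage, were highest for Nqo1 only, at 26.6 CPM pooled against 13.9 in endothelial-like cells. Basal-like cells, the contractile lineage, were highest for Gsto1 with the libraries pooled, though only 1.12-fold above L-Alv-like cells. The basal-like level was 44.4 CPM in Vehicle, 66.4 in E2, 62.4 in E2+PBDE, 64.4 in E2+P4 and 67.4 in E2+P4+PBDE. In Vehicle, L-Hor-like cells (63.4 CPM) and L-Alv-like cells (57.8 CPM) were above it, and in E2, L-Alv-like cells (70.0 CPM) were. Cyp4f18 was highest in hematopoietic-like cells, at 3.41 CPM against 0.159 in L-Alv-like cells, the second compartment. This rests on 12 against 2 UMIs, with 8 of the 12 from Vehicle.

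**Figure D1:**
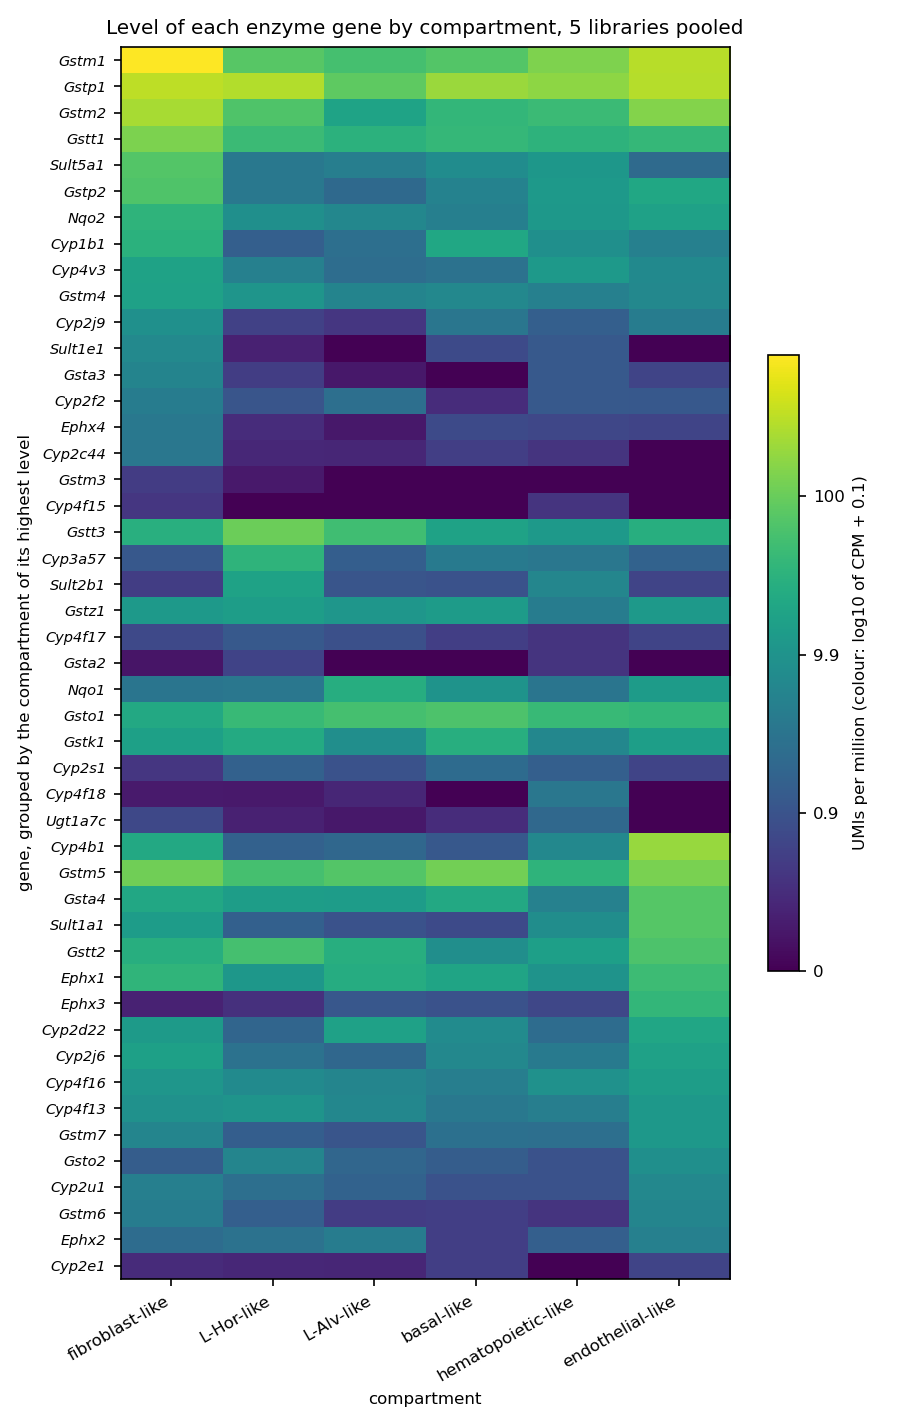
Level of each of the 47 genes (rows, grouped by the compartment in which the gene was highest) in the 6 compartments (columns), with the 5 libraries pooled, in CPM on a log color scale. Gstm1 and Gstp1 are bright in every column and brightest in fibroblast-like cells, whereas Ephx3 stands out only in endothelial-like cells and Cyp3a57 only in L-Hor-like cells.

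Fibroblast-like cells fell into a pair of states in all 5 libraries. In 6 clusters, Pi16, a marker of adventitial fibroblasts, stood at 3191 to 5413 CPM and Col15a1, a basement membrane collagen, at 6.85 to 12.1 CPM. In the other 10 clusters Pi16 stood at 312 to 698 CPM and Col15a1 at 161 to 1081 CPM. This split was made after the clusters were seen. The members were left out of the genes used for clustering, but since the split was chosen with their levels in view, the differences between the states are given as a description. Of 36 members with at least 50 UMIs in fibroblast-like cells, 13 were higher in Pi16-high cells in each of the 5 libraries and 7 were lower in each, beside 16.7% and 26.3% of the 11804 genes with as many UMIs. With the libraries pooled, 7 members were at least 1.5-fold above and 6 at least 1.5-fold below, beside 8.73% and 18.8% of all genes.

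The 6 members at least 1.5-fold below in Pi16-high cells included 4 phase I genes. Cyp1b1 had 9.54 CPM in Pi16-high and 66.9 in Pi16-low cells, a ratio of 0.143. The naphthalene-oxidizing P450 Cyp2f2 had 0.828 CPM in Pi16-high and 10.1 in Pi16-low cells, and the soluble epoxide hydrolase Ephx2 had 0.540 CPM in Pi16-high and 5.17 in Pi16-low cells. The P450 Cyp2j9 and the omega class transferases Gsto1 and Gsto2 were the others, of which Gsto1 had 14.5 CPM in Pi16-high and 36.1 in Pi16-low cells. Of the 7 members at least 1.5-fold above, 4 were glutathione transferases. Gsta3 had 7.99 CPM in Pi16-high and 1.82 in Pi16-low cells, and Gstm6 had 5.80 CPM in Pi16-high and 1.70 in Pi16-low cells. The abundant Gstm1 had 924 CPM in Pi16-high and 553 in Pi16-low cells, and Gstt3 was on the same side, as were the arachidonate epoxygenase Cyp2c44, with 5.00 CPM in Pi16-high and 0.852 in Pi16-low cells, the quinone reductase Nqo2, with 41.0 CPM in Pi16-high and 21.7 in Pi16-low cells, and the microsomal epoxide hydrolase Ephx1, with 41.8 CPM in Pi16-high and 23.5 in Pi16-low cells. The direction was the same in 5 of 5 libraries for each of these 13 genes except Cyp2j9, for which it was the same in 4.

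**Figure D2:**
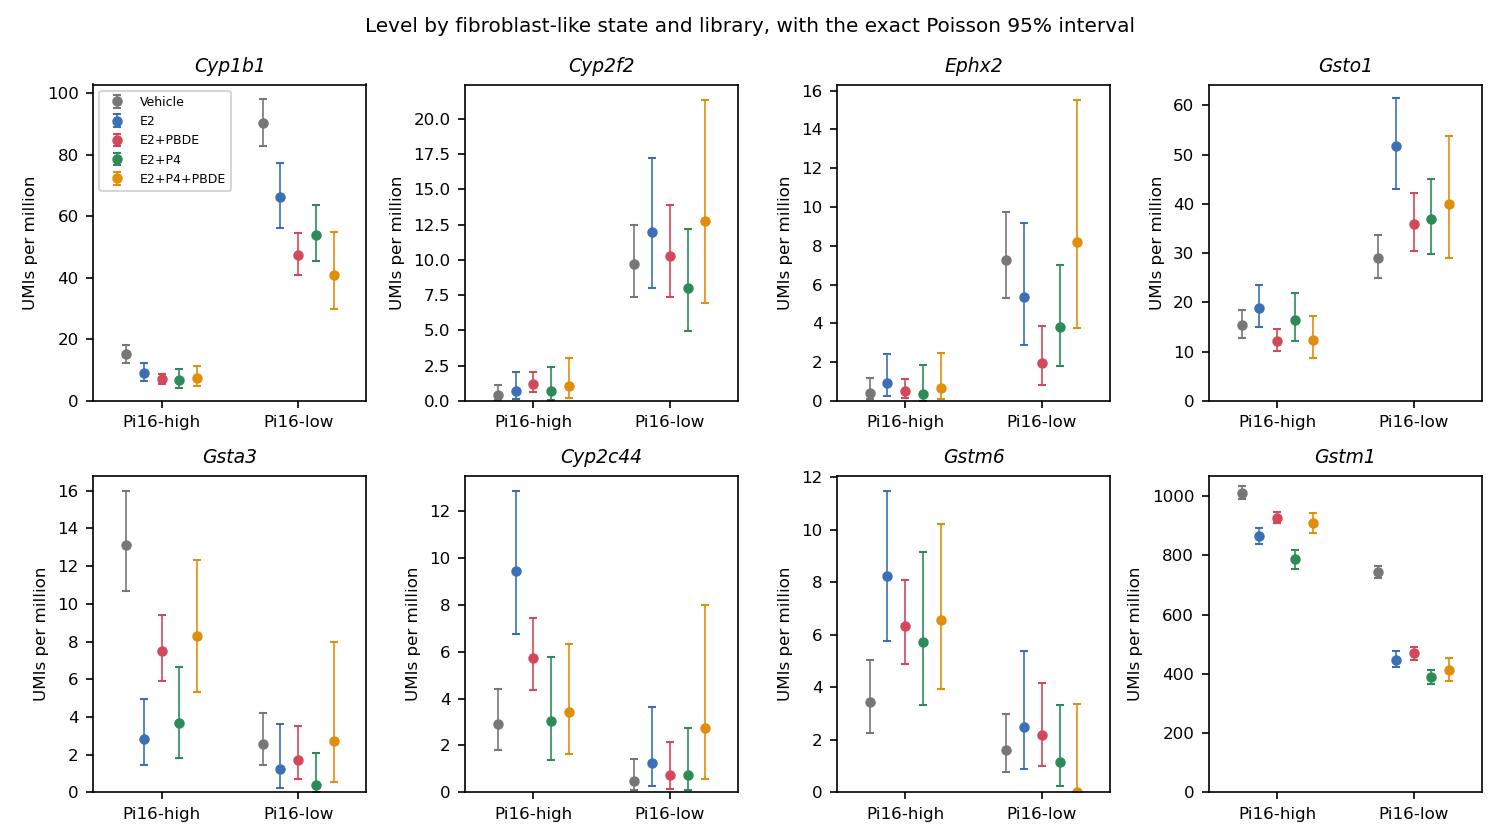
Level in CPM of 8 genes in Pi16-high and Pi16-low fibroblast-like cells. Each point is 1 library, with its exact Poisson 95% interval. Cyp1b1, Cyp2f2, Ephx2 and Gsto1 were higher in the Pi16-low state in all 5 libraries, and Gsta3, Cyp2c44, Gstm6 and Gstm1 in the Pi16-high state.

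The states took different shares of the fibroblast-like cells. Pi16-high cells made up 50.1% in Vehicle, 64.4% in E2, 69.9% in E2+PBDE, 53.1% in E2+P4 and 73.6% in E2+P4+PBDE. The share was higher in both PBDE libraries than in their counterparts, by a wider margin with progesterone. For this reason several of the ratios of fibroblast-like cells below, though not all, are also given within the states.

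To ask how PBDEs bear on these enzymes, E2+PBDE was compared with E2 and E2+P4+PBDE with E2+P4. These comparisons share no library. A gene was compared when it had at least 50 UMIs over both libraries, and a ratio of CPM of at least 1.5 in either direction was counted. The median ratio of all genes compared was itself below 1, at -0.17 in fibroblast-like, -0.15 in L-Hor-like and -0.16 in L-Alv-like cells on the log2 scale in the first comparison and at -0.10, -0.11 and -0.08 in the second. Few members reached the limit. In fibroblast-like cells of E2+PBDE, 2 of 34 members were at least 1.5-fold higher and 4 were at least 1.5-fold lower, against 1.22% and 8.22% of the 10438 genes compared. Their median log2 ratio was -0.23, against -0.17 for all genes, and 28 of the 34 ratios were below 1. The interval lay wholly below 1 for 9 of the 34 and wholly above 1 for 3, against 28.4% and 4.98% of all genes. In the second comparison 0 of 26 were higher and 2 lower, against 2.68% and 9.7% of 8885 genes. The median was 0.19, against -0.10 for all genes, and 19 of the 26 ratios were above 1. The interval lay wholly above 1 for 6 of the 26 and wholly below 1 for 2, against 8.99% and 18.1% of all genes. With each ratio divided by the median ratio of all genes, the counts were 2 higher and 0 lower in the first comparison and 1 higher and 2 lower in the second. The share of all genes after this division is not given here, nor is the share of all genes with ratios above or below 1. Without these shares, such counts can show neither an excess nor a lack among the members.

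In fibroblast-like cells, Cyp1b1 was the only member past 1.5-fold in the same direction in both comparisons, where 1.71% of the 8869 genes compared in both were lower by that much in both. Its level was 49.0 CPM in Vehicle, 29.7 in E2, 18.6 in E2+PBDE, 28.9 in E2+P4 and 16.7 in E2+P4+PBDE. The Vehicle library was the highest and both PBDE libraries were the lowest. The ratio was 0.627 (95% interval 0.520 to 0.758) for E2+PBDE against E2 and 0.579 (95% interval 0.429 to 0.775) for E2+P4+PBDE against E2+P4, or 0.706 and 0.619 after division by the median ratio. No cell held more than 8 of its UMIs in any library. Basal-like cells were the second compartment for Cyp1b1. It stood there at 19.7 CPM in Vehicle, 15.8 in E2, 20.4 in E2+PBDE, 22.6 in E2+P4 and 23.2 in E2+P4+PBDE, on 8 to 34 UMIs. Neither PBDE library was below its counterpart in those cells, with overlapping intervals. In L-Hor-like cells both were below, on 3 to 16 UMIs. The levels there were 1.40 CPM in E2, 0.422 in E2+PBDE, 2.14 in E2+P4 and 0.841 in E2+P4+PBDE. In L-Alv-like and endothelial-like cells, on at most 18 UMIs, only E2+P4+PBDE was above its counterpart. In hematopoietic-like cells both PBDE libraries were above, on 2 to 6 UMIs.

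Within the states the differences in Cyp1b1 were smaller than 1.5-fold. In Pi16-low cells, which held most of it, Cyp1b1 stood at 90.2 CPM in Vehicle, 66.1 in E2, 47.4 in E2+PBDE, 53.9 in E2+P4 and 40.9 in E2+P4+PBDE. The ratios there were 0.716 (95% interval 0.578 to 0.889) and 0.759 (95% interval 0.530 to 1.07). In Pi16-high cells the level was 15.1 CPM in Vehicle, 8.96 in E2, 7.02 in E2+PBDE, 6.73 in E2+P4 and 7.58 in E2+P4+PBDE. The ratios were 0.783 (95% interval 0.521 to 1.19) and 1.13 (95% interval 0.587 to 2.18), the last on 42 UMIs. Pi16-high cells made up 64.4% of fibroblast-like cells in E2 and 69.9% in E2+PBDE, and 53.1% in E2+P4 and 73.6% in E2+P4+PBDE. The part of these shares in the ratios of all fibroblast-like cells was not tested.

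Among conjugating enzymes of fibroblast-like cells, Gsta3 was higher in both PBDE libraries. It stood at 8.37 CPM in Vehicle, 2.25 in E2, 5.84 in E2+PBDE, 2.14 in E2+P4 and 6.75 in E2+P4+PBDE. The Vehicle and both PBDE libraries were high, and E2 and E2+P4 were low. The ratio was 2.59 (95% interval 1.49 to 4.84) in the first comparison and 3.15 (95% interval 1.54 to 6.83) in the second, where the 39 UMIs were too few for the count. Within Pi16-high cells the ratios were 2.66 (95% interval 1.44 to 5.36) and 2.23 (95% interval 1.05 to 5.05).

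Sult1e1, which inactivates estradiol, differed widely between libraries. Its level in fibroblast-like cells was 16.2 CPM in Vehicle, 1.20 in E2, 4.43 in E2+PBDE, 0.714 in E2+P4 and 1.00 in E2+P4+PBDE. The Vehicle library stood far above the others, and E2+PBDE stood between it and the remaining 3. E2+PBDE exceeded E2 by a ratio of 3.69 (95% interval 1.76 to 8.92), on 63 against 8 UMIs. The 63 UMIs came from 37 cells, with up to 7 in a cell. Within Pi16-high cells the ratio was 2.62 (95% interval 1.23 to 6.40). In the second comparison, with 4 UMIs in each library, no difference was detectable at this depth.

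The remaining members past 1.5-fold in fibroblast-like cells did so in 1 comparison only. Gsto1 stood at 21.5 CPM in Vehicle, 30.8 in E2, 19.0 in E2+PBDE, 26.1 in E2+P4 and 20.0 in E2+P4+PBDE, with ratios of 0.617 (95% interval 0.513 to 0.744) and 0.768 (95% interval 0.577 to 1.02). The first was 0.645 (95% interval 0.483 to 0.865) in Pi16-high and 0.695 (95% interval 0.544 to 0.889) in Pi16-low cells. Cyp4b1 stood at 16.0 CPM in Vehicle, 33.8 in E2, 21.5 in E2+PBDE, 20.7 in E2+P4 and 26.2 in E2+P4+PBDE. E2 was its highest library and Vehicle its lowest. Its ratios were 0.637 (95% interval 0.535 to 0.761) and 1.27 (95% interval 0.964 to 1.67), on opposite sides of 1. In the first comparison the Cyp4b1 ratio was 0.489 (95% interval 0.389 to 0.614) in Pi16-high cells and 1.01 (95% interval 0.762 to 1.35) in Pi16-low cells, so that the lower level of E2+PBDE lay in the first state.

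Cyp2c44 had 1.82 CPM in Vehicle, 6.46 in E2, 4.29 in E2+PBDE, 1.96 in E2+P4 and 3.25 in E2+P4+PBDE, and its ratio of 0.665 (95% interval 0.443 to 1.01) in the first comparison had an interval that includes 1. Within Pi16-high cells the ratio was 0.608 (95% interval 0.399 to 0.934). Cyp2d22, a P450 of the subfamily that handles many drugs, had 13.2 CPM in Vehicle, 13.2 in E2, 12.7 in E2+PBDE, 17.5 in E2+P4 and 10.2 in E2+P4+PBDE. Only E2+P4+PBDE and E2+P4 lay apart from the other 3 libraries, on either side of them. The ratio was 0.586 (95% interval 0.397 to 0.852) for E2+P4+PBDE against E2+P4 and 0.959 (95% interval 0.739 to 1.25) for E2+PBDE against E2. The former was 0.576 (95% interval 0.346 to 0.942) in Pi16-high and 0.671 (95% interval 0.342 to 1.23) in Pi16-low cells.

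Of the 26 members compared in both, 15 had ratios on opposite sides of 1, that is 57.7% against 38.7% of all genes. In L-Hor-like cells it was 5 of 20, or 25%, against 40.2%, and in L-Alv-like cells 9 of 13, or 69.2%, against 45.0%. Gstp1 was an example among the abundant transferases, with ratios of 0.833 (95% interval 0.791 to 0.877) and 1.27 (95% interval 1.18 to 1.36). Gstp2, whose counts overlap with those of Gstp1 by sequence, and Gstt2 also had intervals below 1 in the first comparison and above 1 in the second. Gstm1 had an interval above 1 in both, with ratios of 1.11 (95% interval 1.08 to 1.15) and 1.29 (95% interval 1.23 to 1.35), as did 2.41% of all genes. Within Pi16-high cells, where Gstm1 was higher, the ratios were 1.07 (95% interval 1.03 to 1.11) and 1.16 (95% interval 1.09 to 1.22).

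Nqo1, the usual Nrf2 reporter, was low in fibroblast-like cells, at 2.84 CPM in Vehicle, 3.60 in E2, 3.10 in E2+PBDE, 2.50 in E2+P4 and 5.00 in E2+P4+PBDE. E2+P4+PBDE was the highest. The ratio was 0.859 (95% interval 0.511 to 1.48) in the first comparison and 2.00 (95% interval 0.961 to 4.28) in the second, on 20 against 14 UMIs in the latter.

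**Figure D3:**
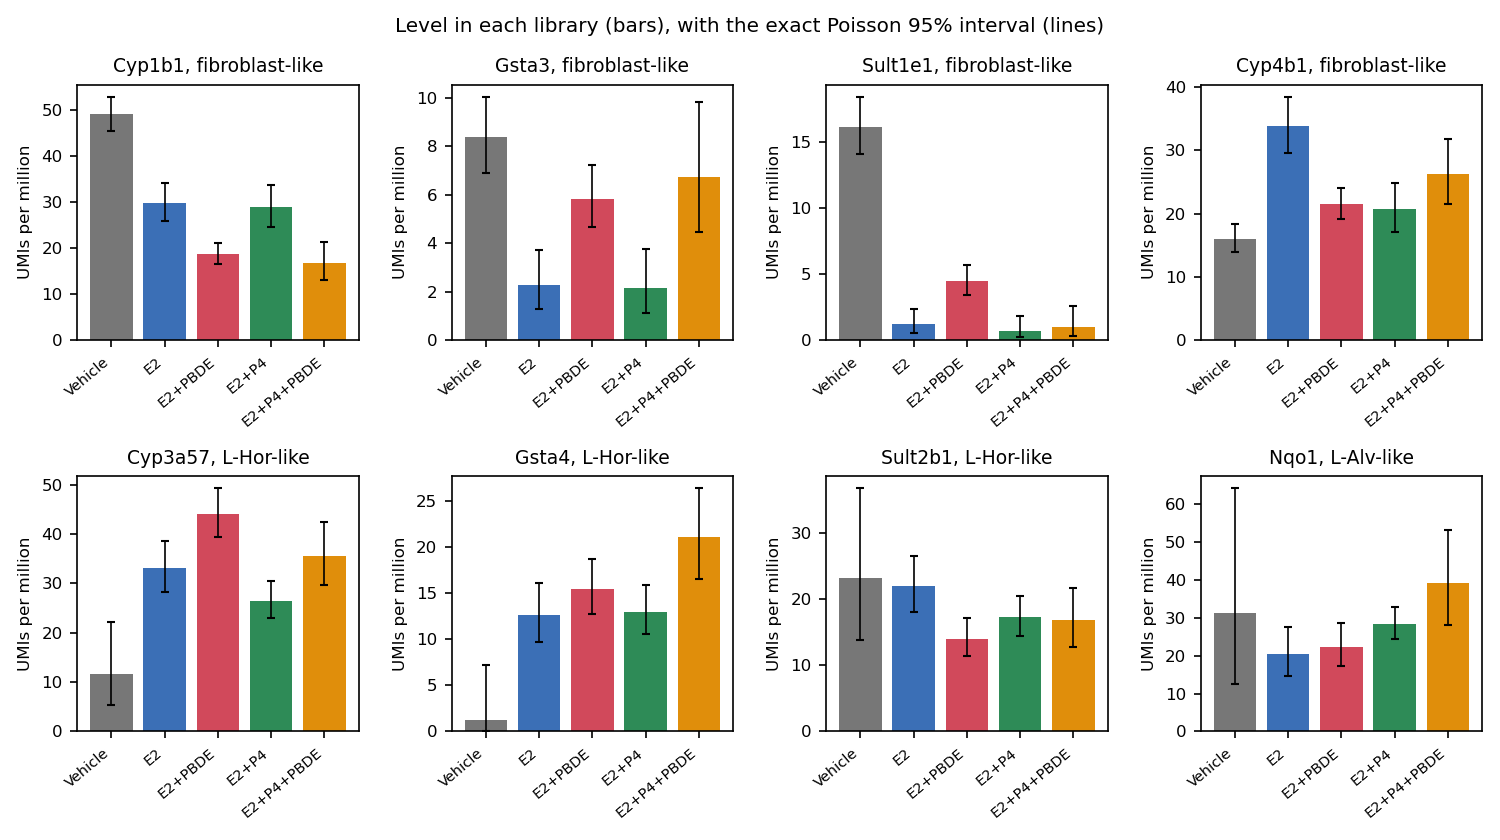
Level in CPM in each of the 5 libraries (bars, with exact Poisson 95% intervals as lines) for Cyp1b1, Gsta3, Sult1e1 and Cyp4b1 in fibroblast-like cells, Cyp3a57, Gsta4 and Sult2b1 in L-Hor-like cells and Nqo1 in L-Alv-like cells. Cyp1b1 is lowest in both PBDE libraries, and Sult1e1 is highest in Vehicle.

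In L-Hor-like cells 1 of 21 members was higher and 1 lower in E2+PBDE, against 2.18% and 8.03% of 9128 genes, and 1 of 21 was higher and 0 lower in E2+P4+PBDE, against 3.01% and 10.3% of 8915 genes. After division by the median ratio these counts were 1 and 0, and 2 and 0, without a share of all genes to set beside them. The median log2 ratios of the members were -0.09 and -0.01. Cyp3a57 had much the same ratio in both comparisons. Its level was 11.6 CPM in Vehicle, 33.2 in E2, 44.1 in E2+PBDE, 26.5 in E2+P4 and 35.6 in E2+P4+PBDE. E2+PBDE was the highest, and Vehicle, with 9 UMIs, the lowest. The ratios for PBDEs were 1.33 (95% interval 1.10 to 1.62) and 1.34 (95% interval 1.07 to 1.69), both with intervals above 1, as for 1.96% of all genes, and both below 1.5. Gstt2 had intervals below 1 in both, as did 6.94% of all genes, with ratios of 0.748 (95% interval 0.634 to 0.883) and 0.831 (95% interval 0.700 to 0.983).

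Gsta4 was the member higher in E2+P4+PBDE. Its level in L-Hor-like cells was 1.29 CPM in Vehicle, 12.6 in E2, 15.5 in E2+PBDE, 13.0 in E2+P4 and 21.0 in E2+P4+PBDE. The PBDE libraries were the highest, and the single UMI of Vehicle made it the lowest. The ratios were 1.23 (95% interval 0.893 to 1.70) in the first comparison and 1.62 (95% interval 1.18 to 2.21) in the second. Sult2b1 stood at 23.3 CPM in Vehicle, 22.0 in E2, 14.1 in E2+PBDE, 17.3 in E2+P4 and 16.8 in E2+P4+PBDE. E2+PBDE was its lowest library, with ratios of 0.640 (95% interval 0.483 to 0.846) and 0.975 (95% interval 0.705 to 1.33).

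Gstp2 in L-Hor-like cells had 2.59 CPM in Vehicle, 2.20 in E2, 6.46 in E2+PBDE, 2.01 in E2+P4 and 2.52 in E2+P4+PBDE. Only E2+PBDE stood apart, and the ratio to E2 was 2.94 (95% interval 1.501 to 6.30), on 46 against 11 UMIs. Fibroblast markers in these cells were at 7.04% of their fibroblast level in E2+PBDE and at 5.23% in E2, and Gstp2, a fibroblast gene, ranged over 2.76 to 11.2% of its fibroblast level in the 5 libraries. The part of free fibroblast RNA in this ratio was not tested. Gstp1 in L-Hor-like cells stood at 274 CPM in Vehicle, 310 in E2, 245 in E2+PBDE, 256 in E2+P4 and 327 in E2+P4+PBDE, and its ratios of 0.790 (95% interval 0.738 to 0.847) and 1.28 (95% interval 1.19 to 1.38) lay on opposite sides of 1, as in fibroblast-like cells. Nqo1 was low, at 6.47 CPM in Vehicle, 2.40 in E2, 2.11 in E2+PBDE, 4.95 in E2+P4 and 3.64 in E2+P4+PBDE.

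In L-Alv-like cells, 0 of 13 members were higher and 2 lower in E2+PBDE, against 2.86% and 8.6% of 6473 genes. In E2+P4+PBDE, 1 of 15 was higher and 1 lower, against 5.76% and 13.2% of 7800 genes. After division by the median ratio these were 1 higher and 1 lower, and 1 higher and 0 lower, again without a share of all genes. The members' median log2 ratios were -0.27 and 0.12. Nqo1, most abundant in this lineage, gave 31.1 CPM in Vehicle, 20.3 in E2, 22.3 in E2+PBDE, 28.3 in E2+P4 and 39.1 in E2+P4+PBDE. Each PBDE library was above its counterpart, but the ratios of 1.10 (95% interval 0.729 to 1.66) and 1.38 (95% interval 0.958 to 1.94) had intervals that include 1.

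Gstp1 in L-Alv-like cells stood at 97.8 CPM in Vehicle, 112 in E2, 69.3 in E2+PBDE, 83.2 in E2+P4 and 100 in E2+P4+PBDE. E2+PBDE was the lowest, with a ratio of 0.621 (95% interval 0.510 to 0.754), against 1.20 (95% interval 0.967 to 1.49) with progesterone. Gstm1 gave 97.8 CPM in Vehicle, 63.0 in E2, 52.2 in E2+PBDE, 48.7 in E2+P4 and 81.0 in E2+P4+PBDE. It was higher in E2+P4+PBDE, with a ratio of 1.66 (95% interval 1.29 to 2.12), and not in E2+PBDE, at 0.829 (95% interval 0.650 to 1.06). Gstm1 here was 6.56 to 11.0% of its fibroblast level, and the fibroblast markers stood at 4.98% of theirs in E2+P4+PBDE and 2.65% in E2+P4, and the part of free RNA was not tested. Gstz1, which also serves tyrosine breakdown, gave 4.45 CPM in Vehicle, 14.9 in E2, 8.71 in E2+PBDE, 11.5 in E2+P4 and 7.63 in E2+P4+PBDE. It was past the limit in both comparisons, at 0.585 (95% interval 0.330 to 1.03) and 0.662 (95% interval 0.276 to 1.37), but both intervals include 1. In these cells 1.33% of the 6457 genes compared in both were lower by that much in both.

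**Figure D4:**
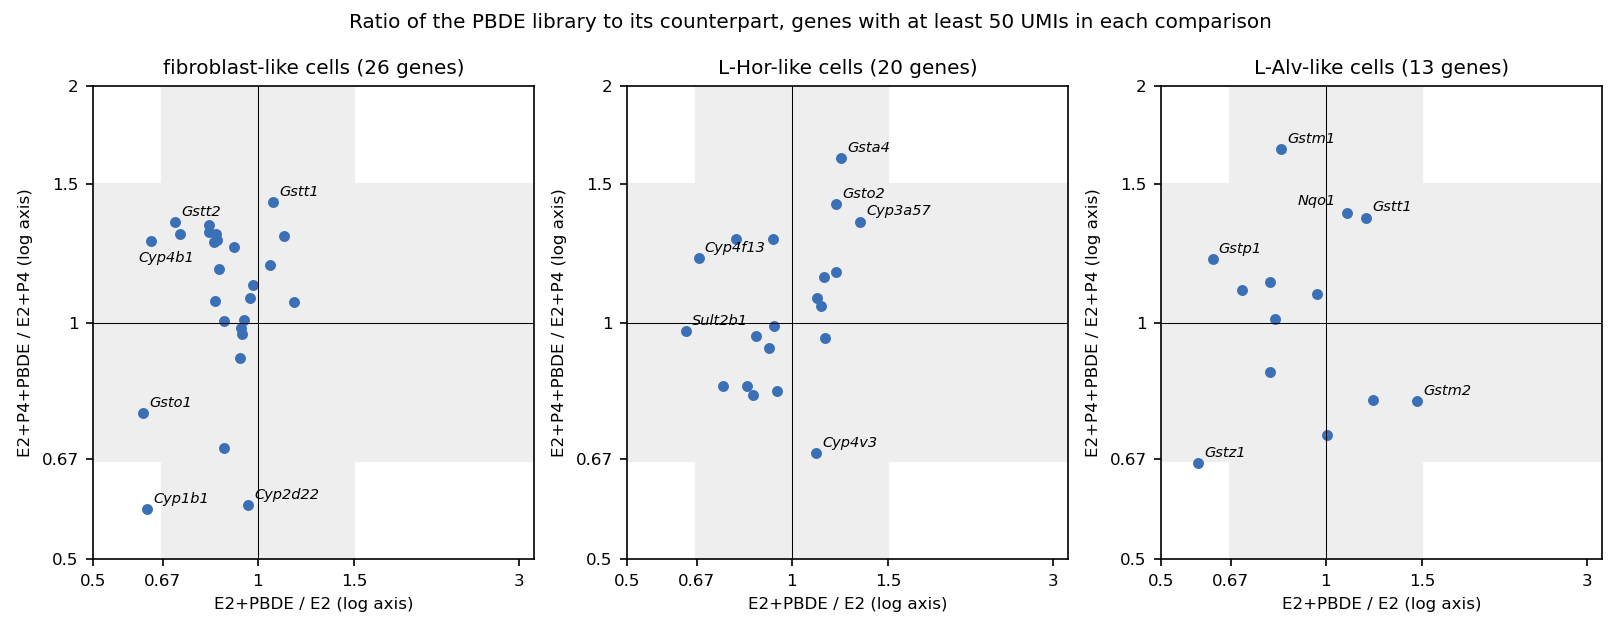
Ratio of CPM for E2+PBDE against E2 (horizontal log axis) and for E2+P4+PBDE against E2+P4 (vertical log axis), where each point is a gene with at least 50 UMIs in each comparison and the gray bands mark ratios within 1.5-fold. Cyp1b1 in fibroblast-like cells and Gstz1 in L-Alv-like cells are the points outside both bands on the lower side, and most points lie inside both bands.

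In the 3 smaller compartments, values are given for the members with the most UMIs. Basal-like cells had Gstp1 at 251 CPM in Vehicle, 238 in E2, 176 in E2+PBDE, 194 in E2+P4 and 192 in E2+P4+PBDE. Their Gstm5 was at 106 CPM in Vehicle, 123 in E2, 132 in E2+PBDE, 119 in E2+P4 and 100 in E2+P4+PBDE. Their Gstm1 was at 175 CPM in Vehicle, 58.0 in E2, 76.4 in E2+PBDE, 58.4 in E2+P4 and 57.9 in E2+P4+PBDE. Vehicle was highest for Gstp1 and Gstm1, whereas Gstm5 was nearly even. The fibroblast markers in these cells stood at 9.76% of their fibroblast level in Vehicle and at 4.05 to 4.25% in the other libraries, and their part in the Gstm1 values was not tested. Hematopoietic-like cells had Gstp1 at 208 CPM in Vehicle, 183 in E2, 150 in E2+PBDE, 160 in E2+P4 and 148 in E2+P4+PBDE. Gstm1 was at 219 CPM in Vehicle, 108 in E2, 149 in E2+PBDE, 47.4 in E2+P4 and 141 in E2+P4+PBDE, lowest in E2+P4. Gstm2 was at 70.2 CPM in Vehicle, 36.6 in E2, 46.5 in E2+PBDE, 17.6 in E2+P4 and 45.4 in E2+P4+PBDE, with the same order of the libraries. Fibroblast markers in these cells had that order too. They were at 32.3% of their fibroblast level in Vehicle, 9.92% in E2, 21.1% in E2+PBDE, 4.91% in E2+P4 and 15.1% in E2+P4+PBDE. Their part in the Gstm1 and Gstm2 values was not tested. Gstm1 in these cells had a ratio of 2.97 (95% interval 1.92 to 4.65) for E2+P4+PBDE against E2+P4, and the fibroblast markers in the same cells were at 15.1% and 4.91% of their fibroblast level in these libraries. Their part in the ratio was not tested. Endothelial-like cells had Gstm1 at 413 CPM in Vehicle, 215 in E2, 319 in E2+PBDE, 314 in E2+P4 and 275 in E2+P4+PBDE. Their Gstp1 was at 354 CPM in Vehicle, 300 in E2, 238 in E2+PBDE, 325 in E2+P4 and 290 in E2+P4+PBDE. Their Cyp4b1 was about as high in E2+PBDE as in Vehicle, with ratios for PBDEs of 1.30 (95% interval 0.993 to 1.72) and 0.960 (95% interval 0.593 to 1.58).

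The E2 and Vehicle libraries, neither with PBDEs, also differed in several of these genes. In fibroblast-like cells, the ratio of E2 to Vehicle was 0.0743 (95% interval 0.0317 to 0.149) for Sult1e1, 0.269 (95% interval 0.146 to 0.462) for Gsta3 and 0.607 (95% interval 0.515 to 0.712) for Cyp1b1. It was 3.55 (95% interval 2.12 to 6.06) for Cyp2c44 and 2.11 (95% interval 1.74 to 2.55) for Cyp4b1. Pi16-high cells made up 50.1% of fibroblast-like cells in Vehicle and 64.4% in E2, and the part of these shares in the ratios was not tested. In Pi16-low cells Sult1e1 had 19.2 CPM in Vehicle and 0 UMIs in E2, and against the floor of 3 UMIs in E2 (1.24 CPM) this is at least 15.5-fold lower. In L-Hor-like cells Cyp3a57 had a ratio of 2.85 (95% interval 1.46 to 6.34) and Gsta4, with 1 UMI in Vehicle, of 9.72 (95% interval 1.68 to 390). These ratios share the E2 library with those of E2+PBDE against E2, so a high or low value in E2 enters both.

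The rest of the pathway was read from 6 lists with 57 genes, namely receptors and regulators, electron donors of the P450s, glutathione synthesis and Nrf2 targets, other phase I enzymes, other phase II enzymes and transporters. In fibroblast-like cells 0 of the 46 genes compared were at least 1.5-fold higher in E2+PBDE and 2 were lower (Fmo1 and the efflux transporter Abcg2), beside 1.22% and 8.22% of all genes. In E2+P4+PBDE 1 of 44 was higher (the amine oxidase Maob) and 2 were lower (Fmo1 and the methyltransferase Tpmt), beside 2.68% and 9.7%. In L-Hor-like cells 3 of 34 were higher (Hmox1, Mgst2 and Papss2) and 1 lower (Keap1) in the first comparison, beside 2.18% and 8.03%, and 1 of 33 was higher (Ugdh) and 3 lower (Gsr, Srxn1 and Rxra) in the second, beside 3.01% and 10.3%. In L-Alv-like cells 0 of 23 were higher and 3 lower (Gclm, Gsr and Keap1), beside 2.86% and 8.6%, and then 1 of 27 was higher (Ugdh) and 3 lower (Rxra, Fmo2 and Papss1), beside 5.76% and 13.2%. Among these genes the intervals include 1 for Tpmt, for Mgst2, Papss2 and Rxra in L-Hor-like cells and for Fmo2 in L-Alv-like cells. Rxra in L-Alv-like cells rests on 2 against 54 UMIs. The electron donors Por, Cyb5a and Cyb5r3 were within 1.5-fold in all 6 of these comparisons.

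Ahr in fibroblast-like cells had ratios of 0.895 (95% interval 0.614 to 1.32) and 1.32 (95% interval 0.780 to 2.22), and its target Tiparp had 0.749 (95% interval 0.689 to 0.814) and 0.998 (95% interval 0.883 to 1.13). Nfe2l2, which encodes Nrf2, had 1.02 (95% interval 0.928 to 1.13) and 1.21 (95% interval 1.04 to 1.41). None of these 3 was past 1.5-fold in either direction in fibroblast-like, L-Hor-like or L-Alv-like cells. In endothelial-like cells Tiparp had ratios of 1.44 (95% interval 1.12 to 1.87) and 3.17 (95% interval 1.61 to 6.96), the latter on 59 against 10 UMIs. Its level there was 226 CPM in Vehicle, 202 in E2, 290 in E2+PBDE, 55.1 in E2+P4 and 175 in E2+P4+PBDE. E2+P4 was thus the lowest library, and E2+P4+PBDE lay below both Vehicle and E2. In basal-like cells Ahr had 0.776 (95% interval 0.460 to 1.29) and 1.55 (95% interval 0.962 to 2.48). Genes of these lists past 1.5-fold in the same direction in both comparisons were Fmo1 in fibroblast-like cells and Ugdh in endothelial-like cells. In fibroblast-like cells 1.71% of the 8869 genes compared in both were lower by that much in both. For endothelial-like cells the share of all genes higher in both is not given here.

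Fmo1, a flavin monooxygenase of phase I, gave 17.6 CPM in Vehicle, 28.2 in E2, 18.5 in E2+PBDE, 23.7 in E2+P4 and 14.0 in E2+P4+PBDE in fibroblast-like cells. Both PBDE libraries were below their counterparts, with ratios of 0.656 (95% interval 0.542 to 0.795) and 0.590 (95% interval 0.424 to 0.812). Within Pi16-low cells these were 0.703 (95% interval 0.554 to 0.894) and 0.776 (95% interval 0.511 to 1.15), and within Pi16-high cells 0.787 (95% interval 0.566 to 1.11) and 0.805 (95% interval 0.439 to 1.46), none past 1.5-fold. Ugdh, which makes the UDP-glucuronic acid used by Ugt enzymes, gave 284 CPM in Vehicle, 109 in E2, 317 in E2+PBDE, 77.1 in E2+P4 and 237 in E2+P4+PBDE in endothelial-like cells. The ratios were 2.90 (95% interval 2.12 to 4.02) and 3.07 (95% interval 1.73 to 5.87), on 200 against 51 UMIs and 80 against 14 UMIs, where 7.15% and 8.47% of the 3135 and 1488 genes compared were at least 1.5-fold higher. Ugdh in fibroblast-like cells was far higher, at 2527 CPM in Vehicle, 1680 in E2, 1639 in E2+PBDE, 1266 in E2+P4 and 1713 in E2+P4+PBDE. In endothelial-like cells the fibroblast markers were at 6.21% of their fibroblast level in E2, 7.67% in E2+PBDE, 3.04% in E2+P4 and 7.13% in E2+P4+PBDE. The part of free RNA in the endothelial ratios was not tested.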

How the data were processed

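Single-cell RNA libraries (Chromium 3′ v2) of 5 groups were analysed, 1 library per group. The authors aligned the reads to mm10 and counted UMIs with Cell Ranger 2.0.0, and deposited filtered count matrices of whole UMI counts without normalization. Barcodes were kept at 500 genes, 1000 UMIs and no more than 10% of mitochondrial UMIs. Clustering was done per library in R 4.3.3 (Seurat 5.3.0, 2000 variable genes, 10 principal components, 20 neighbours, resolution 0.3 for Vehicle and 0.5 otherwise). Clusters were named from marker genes at a score of at least 0.25, the mean over the markers of the level relative to the highest cluster. Parts of this naming rule, and the division of fibroblast-like clusters at 2000 CPM of Pi16, were set after the clusters were seen.

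UMIs were summed over the cells of a compartment and divided by their total to give CPM (Python 3.11.15). Intervals were computed with scipy 1.17.1 (exact Poisson for levels, exact conditional binomial for ratios) and cover counting error only. No test between groups was possible with 1 library each. Doublets were scored with Scrublet in scanpy 1.11.5. Its thresholds called 1.80 to 2.66% of cells in 4 libraries and 22.9% in E2+P4, so the 20% with the highest scores were left out only as an alternative. The procedure was tested on simulated data.

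The members and gene lists were chosen with earlier results of these data known. Every member with at least 20 UMIs was named with its total. Values per library were given for the 12 members with the highest pooled CPM in their best compartment, for members past 1.5-fold with at least 50 UMIs over both libraries in fibroblast-like, L-Hor-like or L-Alv-like cells, for Cyp1a1, Cyp1b1 and Nqo1, for the 3 members with most UMIs in each smaller compartment, and for list genes past 1.5-fold the same way in both comparisons. Ephx3, Cyp3a57, Gstm6, Cyp2f2, Ephx2 and other members named by compartment or state were added after their values were seen. The alternatives changed the scaling, the UMI minimum, doublets, resolution and the mitochondrial limit.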

Additional observations from a re-analysis of the deposited data

Results flagged for a closer look

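Gstk1, a mitochondrial and peroxisomal glutathione transferase, had ratios on opposite sides of 1 in basal-like cells. E2+PBDE exceeded E2 by a ratio of 1.56 (95% interval 0.886 to 2.78), on 31 against 24 UMIs, and E2+P4+PBDE was below E2+P4 with a ratio of 0.496 (95% interval 0.258 to 0.901), on 15 against 48 UMIs. The first interval includes 1. The basal-like cells of E2+P4+PBDE held more of other lineages than those of E2+P4, with L-Alv markers at 21.4% against 4.47% of their home level, L-Hor markers at 15.6% against 5.09%, and basal markers at 6432 against 11757 CPM, and their part in the ratio was not tested. With 1 library on each side the difference was not tested.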

How the results depend on the processing

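No paired analysis was possible because each group had 1 library. The alternatives left 44 of 68 counts of members past 1.5-fold within 1.5 times their value. The shares of all genes under the alternatives are not given here, so the counts below show no excess among the members. With each ratio divided by the median ratio of all genes, the counts for E2+PBDE against E2 were 0 lower in fibroblast-like cells (4 before), 0 lower in L-Hor-like cells (1 before), and 1 higher and 1 lower in L-Alv-like cells (0 and 2 before). For E2+P4+PBDE against E2+P4 they were 1 higher in fibroblast-like (0 before), 2 higher in L-Hor-like (1 before) and 0 lower in L-Alv-like cells (1 before). A minimum of 20 UMIs gave 3 higher and 2 lower in L-Hor-like and 5 lower in L-Alv-like cells in the first comparison. In the second it gave 3 higher in fibroblast-like, 2 higher and 2 lower in L-Hor-like and 4 lower in L-Alv-like cells. Without the 20% of cells with the highest Scrublet scores, 0 were higher in L-Hor-like cells in the first comparison and 0 lower in L-Alv-like cells in the second. At resolution 1.0, 1 was lower in fibroblast-like cells in the first comparison and 1 in L-Hor-like cells in the second. The restriction to 1 fibroblast state was chosen after seeing the data. Pi16-low clusters alone gave 0 higher and 0 lower in the first comparison and 1 higher and 0 lower in the second, and Pi16-high clusters alone gave 1 higher and 1 lower in the second. The ratio changed side for Cyp2c44 over all barcodes (1.00) and for Cyp4b1 in Pi16-low clusters (1.01), both in the first comparison. The cause of these changes was not tested, beside the number of genes that a lower minimum admits. The named ratios moved by less than their counting intervals in all 25 cases under each of the scaling, Scrublet, resolution and mitochondrial alternatives. Over all barcodes, without compartments, 15 of the 25 did so and 9 others moved by more, among them Cyp1b1 (0.866 and 0.776). In Pi16-high clusters 2 moved by more (Cyp1b1 at 0.783 and Cyp4b1 at 0.489, first comparison), and in Pi16-low clusters 1 (Gsto1 at 1.09, second comparison) beside Cyp4b1. Depth limits genes with few UMIs, above all in Vehicle luminal cells, and differences between animals were not measured.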
